A study of Mus musculus with 18 samples.

Results

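The genes described here encode the nucleolar machinery that makes ribosomes. They are 39 genes named by symbol, and all 39 had a probe set on the array, among 18193 genes with a probe set mapped to a single symbol. Where a gene had several such probe sets, the brightest by its mean over all 18 arrays stood for it. By role, 7 members belong to RNA polymerase I and the transcription of ribosomal DNA, 8 to the small nucleolar ribonucleoproteins (snoRNPs), and 4 are abundant nucleolar proteins. A further 10 act in assembly of the small ribosomal subunit and 10 in assembly of the large one.

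Ribosome synthesis begins in the nucleolus, where RNA polymerase I transcribes ribosomal DNA into a long precursor. The snoRNPs guide its methylation and pseudouridylation, and the precursor is then cut and folded together with ribosomal proteins into the small and the large subunit. The pathway is a major cost of cell growth. Both Myc and ERK signaling are known to raise its output in dividing cells, through genes of the pathway and through RNA polymerase I factors.

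The samples were whole tumors of MC38, a mouse colon carcinoma line, implanted subcutaneously in the flank of C57BL/6-Ly5.1 mice aged 6 to 12 weeks. Control mice (n = 5) received vehicle and control IgG, and the MEKi group (n = 5) received the MEK inhibitor GDC-0623 at 30 mg/kg daily with control IgG. The anti-CD40 group (n = 4) received vehicle and an agonist antibody to CD40 of the mIgG1 isotype, and the MEKi/CD40 group (n = 4) received inhibitor and antibody together. Antibodies were given on treatment days 3, 5 and 7 and again 1 day before analysis, and harvest was at day 22 from inoculation. Every tumor had its own array, and the RNA came from unsorted tumor pieces, with their host stroma and immune cells. The deposited values are log2 signals, and the lowest value of any member on any array was 6.11, well above the floor of the table.

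The markers of the tumor were checked first. Of 10 epithelial genes, 8, among them Krt8, Krt18 and Epcam, stayed below log2 4 on every array, and only Cdh1 and Spint1 averaged above 6. Most epithelial markers were thus not detected in these tumors. The 5 control and 5 MEKi tumors carried numbers from 2 series in their titles, a low and a high one, whereas the anti-CD40 and MEKi/CD40 tumors carried low numbers only. Within the low series, too, each group held its own run of numbers, without overlap with another group. A fit by series therefore does not separate those runs from treatment. The labels do not say what the numbers mark. Replicates of a group correlated at 0.9865 to 0.9983 over all probe sets.

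Promoter windows from RefSeq (mouse build GRCm38.p6) were found for 33 of the 39 members and not for Bop1, Fbl, Npm1, Rrp12, Rrs1 and Tcof1. A window covers 250 bases before and 50 bases after the start of the gene. The E-box CACGTG, the motif that Myc binds, was in 6 of 33 windows, against 10.2% of 14452 genes. The ETS core CCGGAAG or its reverse complement CTTCCGG, letters read by ETS factors that ERK can activate, was in 10 of 33, against 15.0% of genes. The E-box reads the same on both strands and cannot share a base with the ETS core, whereas both forms of the ETS core can overlap each other. Of the 18 members lower with MEKi/CD40, described below, 16 had a window, with an E-box in 3 and an ETS core in 5. The bases upstream of the start are shown for 4 members on the strand of the gene, with either motif in capitals. Imp4 has an E-box 121 bases upstream, Nop2 has both motifs, Polr1c has an ETS core 42 bases upstream, and Dkc1, the member with the largest difference, has neither.

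Imp4, chr1:34439579-34439828, + strand: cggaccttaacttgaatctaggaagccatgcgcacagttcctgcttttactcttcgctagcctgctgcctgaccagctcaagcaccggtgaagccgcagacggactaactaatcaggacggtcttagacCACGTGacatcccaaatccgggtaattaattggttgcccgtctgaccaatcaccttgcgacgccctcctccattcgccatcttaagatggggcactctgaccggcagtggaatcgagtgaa
Nop2, chr6:125131633-125131882, + strand: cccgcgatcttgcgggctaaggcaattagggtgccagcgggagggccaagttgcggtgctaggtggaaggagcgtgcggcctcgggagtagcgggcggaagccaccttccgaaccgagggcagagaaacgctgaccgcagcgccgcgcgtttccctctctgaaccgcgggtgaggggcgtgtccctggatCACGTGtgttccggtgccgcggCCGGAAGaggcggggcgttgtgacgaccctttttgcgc
Polr1c, chr17:46248046-46248295, - strand: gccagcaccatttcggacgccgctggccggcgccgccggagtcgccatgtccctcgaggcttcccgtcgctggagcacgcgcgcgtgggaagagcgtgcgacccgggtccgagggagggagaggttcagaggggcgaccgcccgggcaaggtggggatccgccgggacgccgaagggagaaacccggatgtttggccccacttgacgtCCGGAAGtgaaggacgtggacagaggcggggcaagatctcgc
Dkc1, chrX:75095604-75095853, + strand: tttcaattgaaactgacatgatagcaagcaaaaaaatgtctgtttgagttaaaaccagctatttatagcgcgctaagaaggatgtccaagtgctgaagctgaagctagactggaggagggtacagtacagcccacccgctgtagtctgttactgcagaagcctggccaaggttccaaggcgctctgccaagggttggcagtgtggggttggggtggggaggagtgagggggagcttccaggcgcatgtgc

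The mean over all 39 members gave a first view of the groups. It was 10.69 ± 0.13 (SD, n = 5) in control, 10.58 ± 0.11 (n = 4) with anti-CD40, 10.45 ± 0.16 (n = 5) with MEKi and 10.15 ± 0.30 (n = 4) with MEKi/CD40, on the log2 scale. The MEKi/CD40 mean was the lowest of the 4 groups for 37 members and the control mean the highest for 32. For 35 members the means descended from control through MEKi to MEKi/CD40. These counts were not tested.

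**Figure D1:**
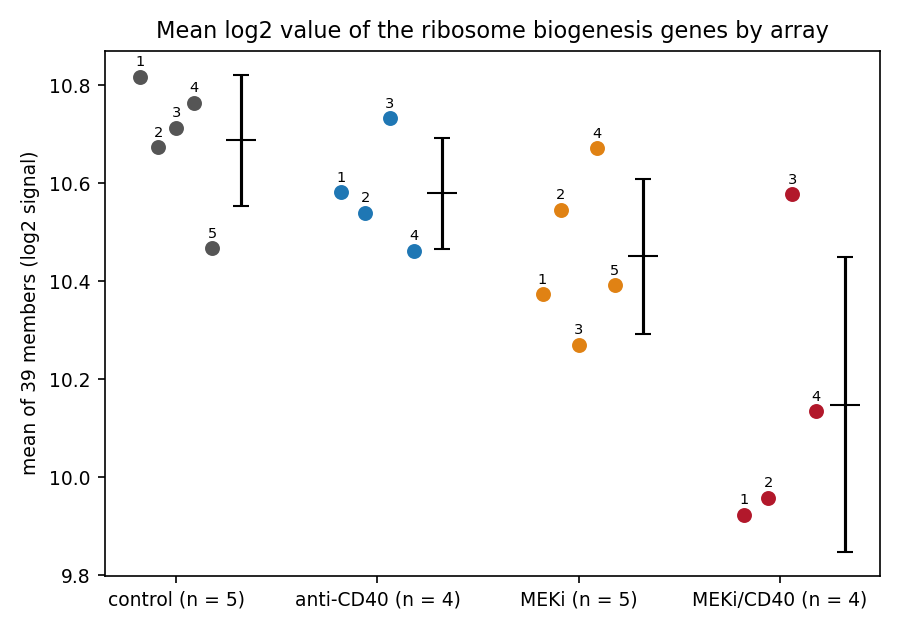
Mean log2 signal of the 39 ribosome biogenesis genes (vertical axis, which does not start at 0) for each array, by group (horizontal axis). Points are arrays labelled by replicate number, and bars give the group mean ± SD. MEKi/CD40 arrays 1, 2 and 4 lie between 9.92 and 10.13, below every other array, and MEKi/CD40 3 at 10.58 lies among the arrays of the other groups.

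Within groups the members moved together from tumor to tumor. MEKi/CD40 3 had the highest value of its group for 37 of 39 members, and its member mean of 10.58 stood against 9.92 to 10.13 in the other 3 tumors. The exceptions were Polr1c, where it was the lowest tumor, and Npm1. Control 5 had the lowest control value for 34 members, while anti-CD40 3 and MEKi 4 each had the highest value of their group for 33. MEKi/CD40 3 also had the highest score of its group for the proliferation genes (mean log2 11.20, against 10.32 to 10.78), the leukocyte genes (9.13, against 8.11 to 8.27), the endothelial genes (7.65, against 5.85 to 7.11) and the fibroblast genes (12.58, against 11.96 to 12.27). Their part in the position of this tumor was not tested, and counts of members in comparisons with MEKi/CD40 are given with and without it.

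**Figure D2:**
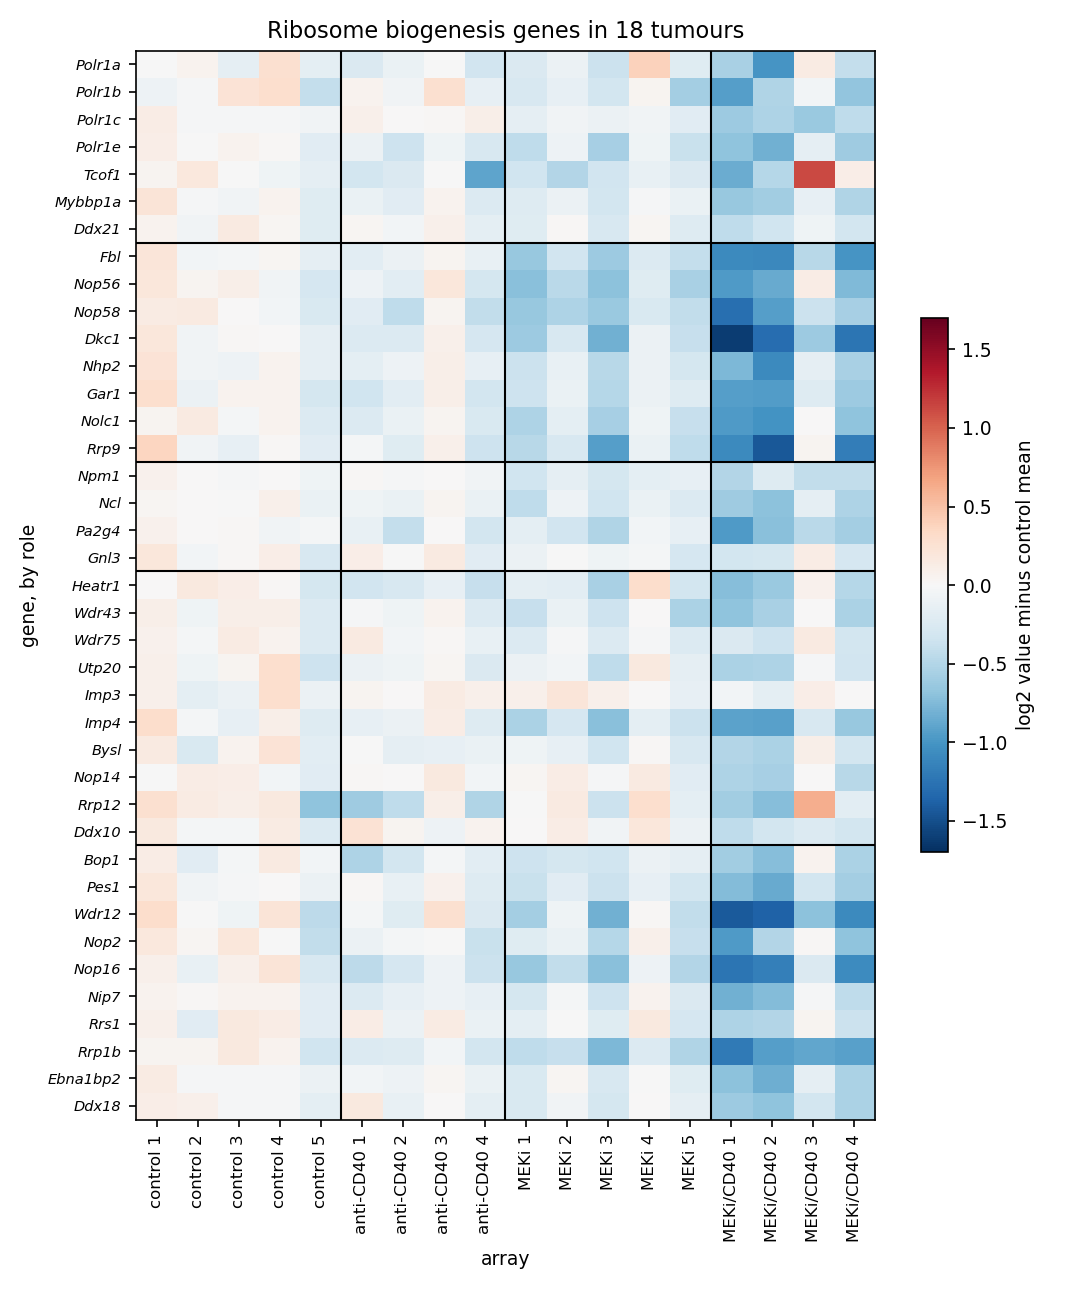
Log2 value minus the control mean of the gene (color) for the 39 members (rows, in 5 blocks by role: RNA polymerase I, snoRNP, nucleolar, small subunit, large subunit) on 18 arrays (columns, by group). The columns of MEKi/CD40 1, 2 and 4 are blue for nearly all rows, while that of MEKi/CD40 3 is pale except for rows such as Dkc1, Wdr12 and Rrp1b, and has its strongest red at Tcof1.

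The comparison of MEKi/CD40 with control asked what the combination did to the pathway. All 39 members had a lower mean with MEKi/CD40, and 18 fell at an adjusted p below 0.05, which was the threshold throughout. No member rose, as 7.65% of all genes did and 12.3% of those above log2 6. The median log2 difference was −0.53, against −0.06 for the 9421 genes whose mean over all arrays was above log2 6, as that of every member was. The 18 members stand beside a background of 12.0% of all genes called lower, and 22.1% of the genes above log2 6. In 13 members all MEKi/CD40 arrays lay below all controls, as in 13.0% of all genes and 23.5% of those above log2 6. In whole tumors, fewer cells that express a gene and less RNA in each cell cannot be told apart. The tests were limma's moderated tests with Benjamini-Hochberg adjustment over 45037 probe sets. The differences of the called members ran from −0.32 for Ddx10 to −1.19 for Dkc1, or 1.25-fold to 2.29-fold lower.

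Among the genes of RNA polymerase I, 3 of 7 fell: Polr1c, Polr1e and Mybbp1a. Polr1c, a subunit shared by RNA polymerases I and III, read 10.69, 10.78, 10.68 and 10.87 with MEKi/CD40, against 11.43, 11.29, 11.28, 11.29 and 11.24 in control. The groups did not overlap, and the spread within each was small beside the gap, so that a difference of −0.55 ± 0.05 (SE) had the smallest p of all members (adjusted p = 0.00133). Its second probe set gave −0.61. Polr1e, another subunit, fell by 0.56 on the log2 scale (adjusted p = 0.0327), and Mybbp1a, a nucleolar regulator of ribosomal DNA transcription, by 0.47 (adjusted p = 0.0444). The catalytic subunits Polr1a and Polr1b differed by −0.45 and −0.54 with intervals from −0.97 to 0.06 and from −1.04 to −0.05, and neither passed the threshold (adjusted p = 0.269 and 0.153). The nucleolar helicase Ddx21 differed by −0.29 (adjusted p = 0.0884).

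Tcof1, which encodes treacle, a cofactor of RNA polymerase I, showed no difference in mean (−0.03, 95% confidence interval −0.90 to 0.85). Its 4 MEKi/CD40 values were 7.94, 8.29, 9.90 and 8.89, against 8.63 to 8.96 in control. MEKi/CD40 3 at 9.90 was the highest of all 18 arrays for this gene, and MEKi/CD40 1 and 2 lay below every control. A second Tcof1 probe set, with a mean of 8.36, was lower with MEKi/CD40 (−0.49, adjusted p = 0.0440). That difference lies within the wide interval of the brightest probe set.

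The snoRNP genes had the largest shift of the 5 role groups, with a median of −0.73. All 8 differences were at or below −0.61, and 4 passed the threshold. Dkc1, the pseudouridine synthase of the box H/ACA particles, read 11.04, 11.36, 12.04 and 11.41 with MEKi/CD40, against 12.85, 12.60, 12.67, 12.66 and 12.50 in control. Every MEKi/CD40 tumor lay below every control, also MEKi/CD40 3, for a difference of −1.19 ± 0.19 (SE, adjusted p = 0.00678). Fbl, the methyltransferase of the box C/D particles, read 11.30, 11.29, 11.92 and 11.39, against 12.23 to 12.59 in control. It fell by 0.91 (adjusted p = 0.00659), again without overlap.

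Among their partners, Nop58, a core protein of the box C/D particles, also fell, by 0.79 (adjusted p = 0.0335), and Gar1, of the box H/ACA particles, fell by 0.68 (adjusted p = 0.0477). The remaining 4 members of this group had differences from −0.61 to −0.91 and did not pass the threshold. Rrp9, a protein of the U3 particle, differed by −0.91 but read 6.46, 6.11, 7.59 and 6.37, so that MEKi/CD40 3 alone lay inside the control range of 7.36 to 7.91 (adjusted p = 0.0934). Nop56, the partner of Nop58, was at 11.22, 11.33, 12.31 and 11.43, against 11.90 to 12.38 in control (−0.61, adjusted p = 0.143). Nhp2 (−0.64, adjusted p = 0.0597) and Nolc1, a snoRNP chaperone (−0.66, adjusted p = 0.0882), likewise had only MEKi/CD40 3 within the control range.

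Of the 4 abundant nucleolar proteins, 3 fell. Npm1, the nucleolar histone chaperone nucleophosmin and the brightest member, read 14.35, 14.63, 14.42 and 14.43 with MEKi/CD40, against 14.92, 14.85, 14.83, 14.85 and 14.77 in control. Its difference of −0.39 ± 0.06 (SE) was small, 1.31-fold, and larger than the spread of either group (adjusted p = 0.00533). The second Npm1 probe set, with a mean of 14.32, gave −0.62 (adjusted p = 0.00311). Pa2g4, a nucleolar RNA-binding protein, fell by 0.68 (adjusted p = 0.00433), with 11.36 to 11.86 against 12.26 to 12.39. Ncl, which encodes nucleolin, fell by 0.50 (adjusted p = 0.0216), and all 4 tumors lay below the controls. Gnl3, or nucleostemin, differed by −0.19 (adjusted p = 0.478). Its MEKi/CD40 values of 11.37, 11.38 and 11.40 lay just below the lowest control of 11.41, and MEKi/CD40 3 at 11.81 lay near the top of the controls.

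The small subunit genes had the smallest share of calls, 2 of 10, with a median of −0.34. Imp4, a component of the U3 particle, fell by 0.69 (adjusted p = 0.0298), and Ddx10, an RNA helicase, by 0.32 (adjusted p = 0.0465). Imp3, a partner of Imp4 in that particle, differed by −0.02, with 10.97 to 11.24 against 10.96 to 11.41 in control and an interval from −0.26 to 0.22. The processome components Heatr1, Wdr43 and Nop14 differed by −0.44, −0.44 and −0.39 (adjusted p = 0.166, 0.103 and 0.0972). Utp20 and Bysl, which act in processing and late maturation, differed by −0.35 and −0.31 (adjusted p = 0.214 and 0.327), and the processome gene Wdr75 by −0.19 (adjusted p = 0.469). Rrp12, which takes part in subunit export, was the most variable of them, at 7.26, 7.13, 8.47 and 7.67 with MEKi/CD40 and 7.17 to 8.12 in control (−0.22, adjusted p = 0.831).

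Large subunit genes were called in 6 of 10 cases, with a median of −0.55. Pes1 and Wdr12, which with Bop1 form the PeBoW complex needed for maturation of the large rRNA, both fell. Wdr12 read 8.40, 8.46, 9.14 and 8.75 with MEKi/CD40, against 10.13, 9.83, 9.76, 10.05 and 9.39 in control. No tumor overlapped, and the difference was −1.14 ± 0.20 (SE, adjusted p = 0.0103). Pes1 fell by 0.62 (adjusted p = 0.0129), with 9.51 to 10.06 against 10.26 to 10.56. Bop1 differed by −0.45 (adjusted p = 0.133), its MEKi/CD40 3 value of 9.79 lying among the controls.

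Rrp1b, a nucleolar assembly factor, had the second smallest p of the members. It read 7.65, 7.92, 7.97 and 7.93 with MEKi/CD40, against 8.91, 8.91, 9.03, 8.92 and 8.52 in control, a 1.99-fold difference (−0.99 ± 0.12 SE, adjusted p = 0.00230). Here MEKi/CD40 3 lay with its group. The helicase Ddx18 fell by 0.54 (adjusted p = 0.00803), Nop16 by 0.93 (adjusted p = 0.0290) and Ebna1bp2 by 0.55 (adjusted p = 0.0314). The rRNA methyltransferase Nop2 and the assembly factors Nip7 and Rrs1 differed by −0.53, −0.50 and −0.34 (adjusted p = 0.173, 0.0888 and 0.188).

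**Figure D3:**
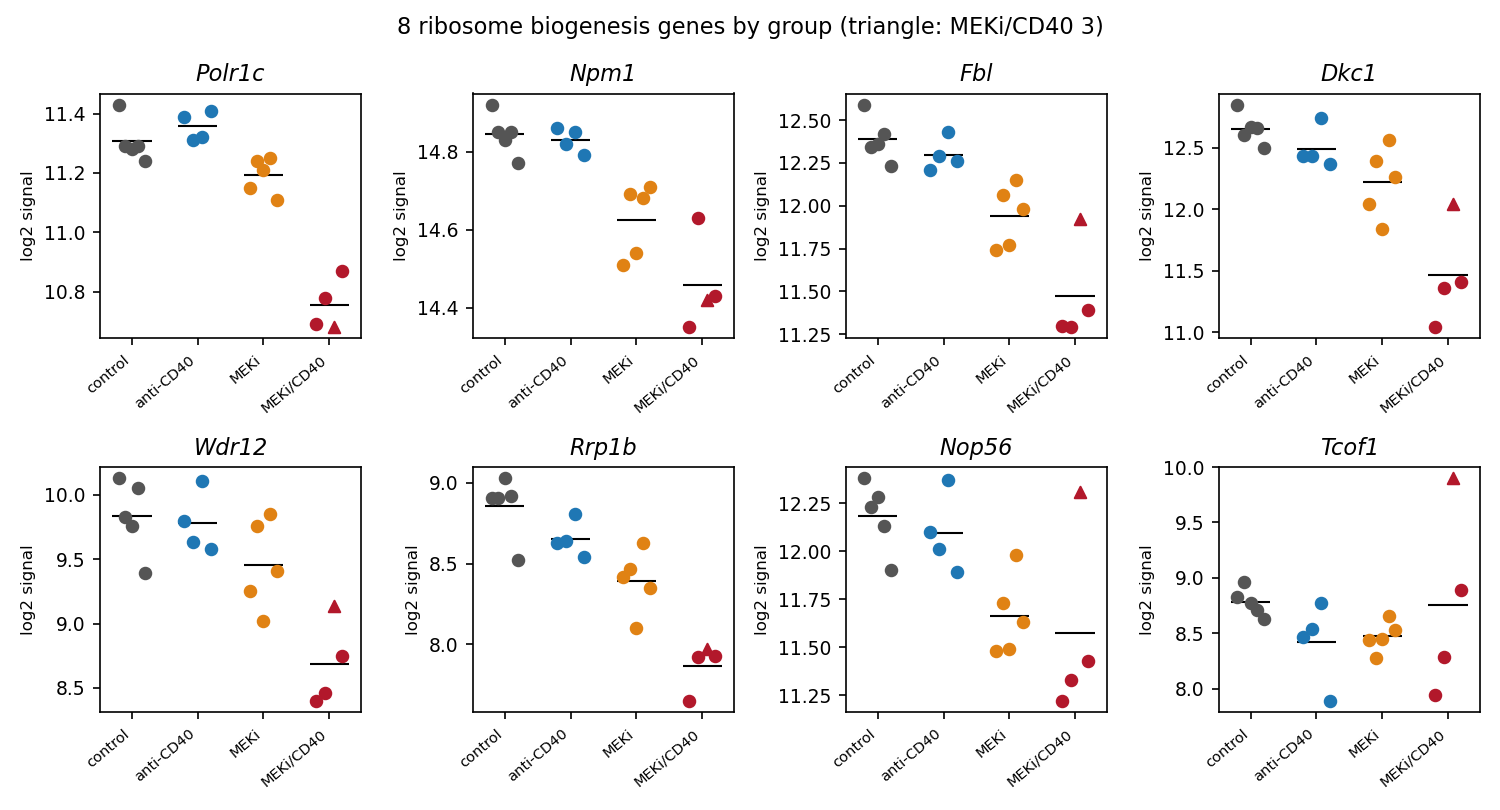
Log2 signal (vertical axes, which do not start at 0) of 8 members in the 4 groups (horizontal axes), 1 point per array with the group mean as a line and MEKi/CD40 3 as a triangle. In Polr1c and Rrp1b the triangle sits with the other MEKi/CD40 tumors, in Nop56 it sits at control level, and in Tcof1 at 9.90 it lies above every other array.

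The count of calls depended on single tumors. Without MEKi/CD40 3, 31 of 39 members were called lower instead of 18, beside 13.1% of all genes and 24.1% of those above log2 6, and the median was −0.65. In that setting 35 members had all 3 remaining tumors below all controls, as did 16.5% of all genes and 29.6% of those above log2 6. All 8 snoRNP genes and all 10 large subunit genes were then called, as were 6 of 7 in the RNA polymerase I group, 3 of 4 nucleolar proteins and 4 of 10 small subunit genes. Rrp9 reached −1.23 and Nop56 −0.86 (adjusted p = 0.00343 and 0.00462). The 8 not called were Ddx10, Wdr75, Bysl, Utp20, Gnl3, Rrp12, Tcof1 and Imp3. With control 1, 2, 3 or 4, or MEKi/CD40 1, 2 or 4 left out, 9 members were called in each case. In those runs 6.8% to 7.73% of all probe sets were lower, against 9.37% with all arrays. Polr1c, Fbl, Dkc1, Npm1, Pa2g4, Pes1, Wdr12, Rrp1b and Ddx18 were called whichever single array was left out.

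The number series bore on the count as well. Of all 45037 probe sets 9.37% were lower in the fit without the series, 5.65% with the series as a covariate and 1.04% within the low series. With the covariate 9 members were called, and within the low series alone, 4 tumors against 2 controls, only Rrp1b was (−1.04, adjusted p = 0.0413), though the median there was −0.57 and 38 members were below 0.

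Markers of several cell types moved with the same comparison. The only detected epithelial markers fell with the members, Cdh1 by 1.20 (adjusted p = 0.0349) and Spint1 by 3.39 (adjusted p = 0.00706), both without overlap. Of 10 fibroblast genes, 8 rose with MEKi/CD40, and their mean log2 level was 11.96 to 12.58, against 8.86 to 9.53 in control. Of 8 adipocyte genes 1 rose, Lpl, and their level was 4.24 to 10.60, against 3.66 to 4.04. Adipoq, the defining fat transcript, averaged 8.26 with MEKi/CD40 and 2.66 in control. None of 10 skeletal muscle genes was called, with a level of 8.35 in MEKi/CD40 4 and of 2.56 to 2.86 in the other 3 tumors. Of 11 leukocyte genes 1 rose and 1 fell, at a level of 8.11 to 9.13, against 7.68 to 8.26. Of 8 endothelial genes 1 rose, of 4 erythroid genes 2 rose and 1 fell, and of 8 epidermis genes 2 rose. With MEKi/CD40 3 left out, 9 of 10 fibroblast genes and 3 epidermis genes rose, 2 leukocyte genes fell, and the counts of the other marker lists stayed as they were. Without MEKi/CD40 2 and 4, the pair with the highest adipocyte level, or with that level as a covariate, 4 members were called, Polr1c, Npm1, Pa2g4 and Rrp1b in both cases, and the median was −0.42 or −0.41. The share of all probe sets called lower was 4.82% or 3.87%. The fit without that pair kept only MEKi/CD40 1 and 3. It cannot separate the adipocyte level from the smaller group or from the place of MEKi/CD40 3. The part of these cells in the result was not tested.

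A measure of RNA quality was read as well. The 3′ minus 5′ difference of the Actb control probe sets was 0.41 with MEKi/CD40 and 0.33 in control, on the log2 scale. An exact two-sided permutation test gave p = 0.0317 (adjusted p = 0.0762 over 12 such tests). The Gapdh probe sets gave −0.20 and −0.25 (exact permutation p = 0.0159, adjusted p = 0.0762). Neither passed the threshold once adjusted, and their part in the result was not tested.

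MEKi alone was compared with control to see the inhibitor without the antibody. Of the 39 members, 36 had a lower mean and 5 fell, Nop58, Npm1, Fbl, Nop56 and Pes1, beside a background of 5.09% of all genes and 9.19% of those above log2 6. The median difference was −0.24, against −0.01 for the genes above log2 6. No member rose, while 6.08% of all genes and 10.6% of those above log2 6 did. In 3 members the MEKi arrays all lay below the controls, as in 6.02% of all genes and 10.7% of those above log2 6.

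Of those 5, 3 are core proteins of the box C/D particles. Nop58 read 10.73, 10.85, 10.75, 11.12 and 10.96 with MEKi, against 11.52, 11.53, 11.38, 11.33 and 11.12 in control (−0.49 ± 0.10 SE, adjusted p = 0.0257). The ranges met at 11.12, the highest MEKi and the lowest control value. Nop56 was at 11.48 to 11.98, against 11.90 to 12.38 (−0.52, adjusted p = 0.0370), and overlapped likewise. Fbl at 11.74 to 12.15 did not overlap the controls at 12.23 to 12.59 (−0.45, adjusted p = 0.0305). Nor did Npm1, at 14.51 to 14.71 against 14.77 to 14.92 (−0.22, adjusted p = 0.0299), or Pes1, at 9.99 to 10.23 against 10.26 to 10.56 (−0.28, adjusted p = 0.0474).

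Rrp1b (−0.46, adjusted p = 0.0534), Tcof1 (−0.31, adjusted p = 0.0569), Nop16 (−0.47, adjusted p = 0.0779), Ncl (−0.24, adjusted p = 0.0794) and Imp4 (−0.41, adjusted p = 0.0925) came next in order of p. At the other end Imp3, Ddx10 and Nop14 had means slightly above control, Imp3 by 0.05 and Ddx10 by 0.03. By role group, 3 of 8 snoRNP genes (median −0.44), 1 of 4 nucleolar proteins, 1 of 10 large subunit genes and no RNA polymerase I or small subunit gene passed the threshold. The fibroblast level also moved here, at 10.37 to 11.07 with MEKi, with 5 of its 10 genes higher. Spint1 fell by 2.21 (adjusted p = 0.0120), 3 of 11 leukocyte genes fell and 1 rose, 1 of 8 endothelial genes fell, and 1 adipocyte and 2 epidermis genes rose. The 3′ minus 5′ differences of Actb and Gapdh were 0.39 and −0.22 (exact permutation p = 0.0317 and 0.0476, adjusted p = 0.0762 and 0.0816). The part of these in the result was not tested. Here too the count depended on single tumors. No member was called without MEKi 1 or 3 or without any 1 of controls 1 to 4, 2 were called without MEKi 2 or 5, 5 without control 5 and 9 without MEKi 4. With the number series as a covariate 3 members were called, and within the low series, 2 tumors against 2, none. The share of all probe sets called lower was 3.83% with all arrays and 1.53% to 3.73% without single arrays. It was 2.81% with the series covariate and 0.0422% within the low series.

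**Figure D4:**
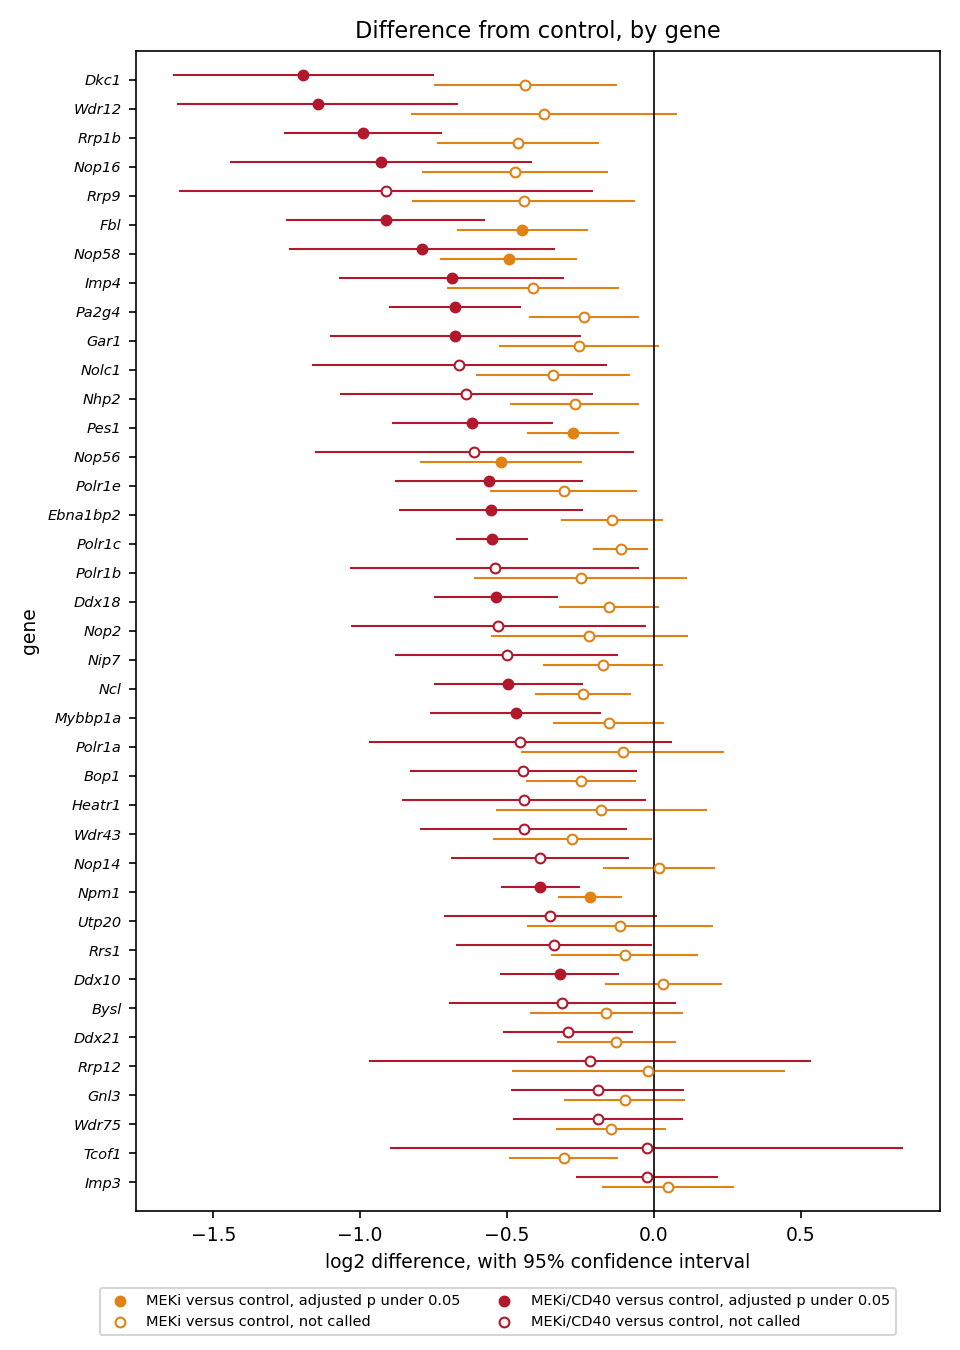
Log2 difference from control (horizontal axis) of each member (vertical axis, ordered by its MEKi/CD40 difference) for MEKi/CD40 (red) and MEKi (orange), with 95% confidence intervals from limma and filled points for adjusted p below 0.05. Both comparisons use the same 5 control arrays. All 39 red points lie below 0, from −1.19 for Dkc1 to −0.02 for Imp3.

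Anti-CD40 alone called no member lower or higher by limma, as it called 0.00% of all genes. At an unadjusted p below 0.05, for which no share of all genes was counted, there were 5 members. These were Heatr1 (−0.28), Pa2g4 (−0.21), Nip7 (−0.15), Nop16 (−0.29) and Polr1e (−0.20), all with an adjusted p of 0.817 to 0.892. The median difference was −0.09, and 32 members were below 0. Tcof1 and Rrp12 had the largest differences, −0.36 each, with intervals that included 0. Imp3 at 0.07 and Ddx10 at 0.06 had the highest. The intervals were narrow for the tightest members, such as Polr1c with 0.05 (95% confidence interval −0.05 to 0.15).

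Adding the antibody to the inhibitor was read from MEKi/CD40 against MEKi. Of the 39 members 38 had a lower mean, with a median of −0.31 against −0.06 for genes above log2 6, and 1 fell, Polr1c, beside 1.85% of all genes and 3.51% of those above log2 6. Polr1c read 11.15, 11.24, 11.21, 11.25 and 11.11 with MEKi, and every MEKi/CD40 value, 10.87 at most, lay below them (−0.44 ± 0.05 SE, adjusted p = 0.0192). Ddx10 (−0.35, adjusted p = 0.0540), Rrp1b (−0.53, adjusted p = 0.0627) and Ddx18 (−0.38, adjusted p = 0.0849) also did not overlap and did not pass the threshold. These 4 members without overlap stand beside 6.68% of all genes and 12.2% of those above log2 6. Wdr12 and Dkc1 had the largest differences, −0.77 and −0.76 (adjusted p = 0.128 and 0.139). In all, 14 members had an unadjusted p below 0.05, a threshold for which no share of all genes was counted. Only Tcof1 had a higher mean (0.28, adjusted p = 0.820). The Polr1c call was lost if MEKi 2, 4 or 5 was left out (highest adjusted p = 0.0584), and likewise when the number series entered the fit. Without MEKi/CD40 3, 3 members were called, beside 1.32% of all genes and 2.43% of those above log2 6.

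Adding the inhibitor to the antibody was read from MEKi/CD40 against anti-CD40. Here 9 members fell, Polr1c, Rrp1b, Npm1, Wdr12, Fbl, Ddx10, Dkc1, Ddx18 and Pes1, beside 9.06% of all genes and 16.8% of those above log2 6, and the median was −0.43. None rose, as 5.84% of all genes did and 9.56% of those above log2 6. In 13 members the groups did not overlap, as in 13.4% of all genes and 24.1% of those above log2 6. Polr1c fell by 0.60 (adjusted p = 0.00284), Rrp1b by 0.79 (adjusted p = 0.00502) and Npm1 by 0.37 (adjusted p = 0.0132). Those 3 were called whichever array was left out. With the mean of all probe sets of a gene, Rrp1b, Wdr12, Pes1 and Ddx18 lost their calls.

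The anti-CD40 tumors stood close to control in these genes, Polr1c for instance at 11.39, 11.31, 11.32 and 11.41 and Dkc1 at 12.43, 12.43, 12.74 and 12.37. Wdr12 fell by 1.09, Dkc1 by 1.03, Fbl by 0.82, Pes1 by 0.56, Ddx18 by 0.51 and Ddx10 by 0.39 (adjusted p = 0.0197, 0.0316, 0.0203, 0.0452, 0.0331 and 0.0273). Without MEKi/CD40 3 the count was 29, beside 10.9% of all genes and 20.2% of those above log2 6, and with any other single array left out it was 3 to 5. In those latter runs 3.9% to 5.56% of all probe sets were lower, against 7.19% with all arrays. The fibroblast level was 11.96 to 12.58, against 9.36 to 10.06 with anti-CD40, and 6 of its 10 genes were higher. Of the other markers, Spint1 was lower (−3.46, adjusted p = 0.0178), 1 erythroid gene was lower and 2 were higher, and 2 epidermis genes and 1 endothelial gene were higher. Their part was not tested. All these tumors carry low numbers, so the number series could not be fitted as a covariate here. Even so, every anti-CD40 tumor had a lower title number than every MEKi/CD40 tumor. Any part of the title numbers in these calls was not tested, since it cannot be separated from treatment.

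MEKi against anti-CD40, the single agents, gave 1 call, Polr1c (−0.17, adjusted p = 0.0485), beside 3.09% of all genes and 5.52% of those above log2 6. Npm1 (−0.20, adjusted p = 0.0570) and Fbl (−0.36, adjusted p = 0.0861) followed. In these 3 members the groups did not overlap, as in 6.98% of all genes and 12.2% of those above log2 6. The median was −0.11. The Polr1c call was lost whichever of the 9 arrays was left out.

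The interaction asked whether the 2 agents together differed from the sum of their separate effects, in 1 fit over the 18 arrays. It was below 0 for 34 members, with a median of −0.18 against −0.06 for genes above log2 6, and passed the threshold for 1, Polr1c, beside 1.50% of all genes and 2.81% of those above log2 6. The group means of Polr1c were 11.31 in control, 11.36 with anti-CD40, 11.19 with MEKi and 10.76 with MEKi/CD40. The interaction was −0.49 (95% confidence interval −0.63 to −0.35, adjusted p = 0.00315). It was called whichever of the 18 arrays was left out (highest adjusted p = 0.00819) and not within the low series (adjusted p = 0.223). Ddx10 (−0.42, adjusted p = 0.0875), Nop14 (−0.44, adjusted p = 0.156) and Ddx18 (−0.35, adjusted p = 0.184) came next. For Tcof1, at the opposite end, the interaction was 0.65 with an interval from −0.24 to 1.54. Without MEKi/CD40 3, Nop14 (−0.57), Ebna1bp2 (−0.49) and Fbl (−0.52) passed as well. In that run 1.85% of all probe sets were below 0 and called, against 1.58% with all arrays.

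Further probe sets of the members, 47 in all, gave a second reading of the same transcripts. Of these, 20 were lower with MEKi/CD40 than in control, beside 9.37% of all 45037 probe sets. None was higher, while 2479 of all probe sets were. A mean below log2 6 was found for 18 of the 47. Ncl had a second bright probe set at −0.83 (adjusted p = 0.00389) and Pa2g4 one at −0.63 (adjusted p = 0.00230). Ddx21 and Nhp2, not called by their brightest probe sets, were called by another (−0.99 and −0.73, adjusted p = 0.0377 and 0.0453). Rrp1b, by contrast, had 2 dimmer probe sets that were not called (−1.06 and −0.63, adjusted p = 0.0508 and 0.221), and a dimmer Imp4 probe set was at −0.15 (adjusted p = 0.458).

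Other genes of the pathway, 130 in 5 lists, were read in the same fit. With MEKi/CD40, 59 of them fell and none rose. Among genes above log2 6, 22.1% fell and 12.3% rose. Among further RNA polymerase I factors 3 of 11 fell, Taf1b and Taf1d of the promoter selectivity factor (−0.73 and −0.69, adjusted p = 0.00684 and 0.00720) and the subunit gene Znrd1 (−0.22, adjusted p = 0.0299). Rrn3, the initiation factor that ERK is known to phosphorylate, differed by −0.20 (adjusted p = 0.0615), and Ubtf, which binds ribosomal DNA, by −0.11 (adjusted p = 0.581). Of 9 snoRNP assembly genes 4 fell, Ruvbl2, Ruvbl1 and Rpap3 of the complex that builds box C/D particles (−1.27, −0.77 and −0.45) and Nop10 (−0.47).

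The other small subunit genes fell in 19 of 42 cases, Ddx47, Ddx52, Utp11 and Nol11 first in order of p (−0.48, −0.54, −0.68 and −0.61). The other large subunit genes fell in 21 of 45, led by Nvl, Efl1, Rpf1 and Pak1ip1 (−0.52, −0.61, −0.84 and −0.45). Of the RNA exosome and RNase MRP, which trim the precursor, 12 of 23 fell, among them Exosc3 (−0.74, adjusted p = 0.00111), Exosc8 (−1.02, adjusted p = 0.00248) and Rpp30 (−0.84, adjusted p = 0.00245). Without MEKi/CD40 3 the counts of these 3 lists were 30 of 42, 25 of 45 and 18 of 23, that of the RNA polymerase I factors stayed at 3 of 11 and that of the snoRNP assembly genes was 6 of 9, beside the 24.1% of genes above log2 6.

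Of 44 ribosomal protein genes 17 fell, and their median difference was −0.13. Of these 44, 15 fell once MEKi/CD40 3 was left out. Of their probe sets 31 had a mean above log2 14, near the top of the range, and 2 a mean below 6, so the size of their differences was not set against that of other genes. Rps10, Rpl11 and Rpl4 fell by 0.26, 0.23 and 0.19, while Rpl14, represented by a dimmer probe set, fell by 0.88. These genes have many near-identical pseudogenes, so a probe set may also read other loci. Of 10 translation factors 5 fell, such as Eif3c (−0.40) and the cap-binding Eif4e (−0.71), and the count was the same without MEKi/CD40 3.

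With MEKi alone the same lists gave 0 of 11, 2 of 9, 3 of 42, 4 of 45 and 4 of 23 lower, and 3 of 44 ribosomal proteins. These counts stand beside 5.09% of all genes and 9.19% of those above log2 6. Nop10 (−0.51, adjusted p = 0.00742), Noc2l (−0.25, adjusted p = 0.00783) and Lsg1 (−0.44, adjusted p = 0.0136) had the smallest p among the pathway genes. With anti-CD40 alone none was called in any of these lists.

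**Figure D5:**
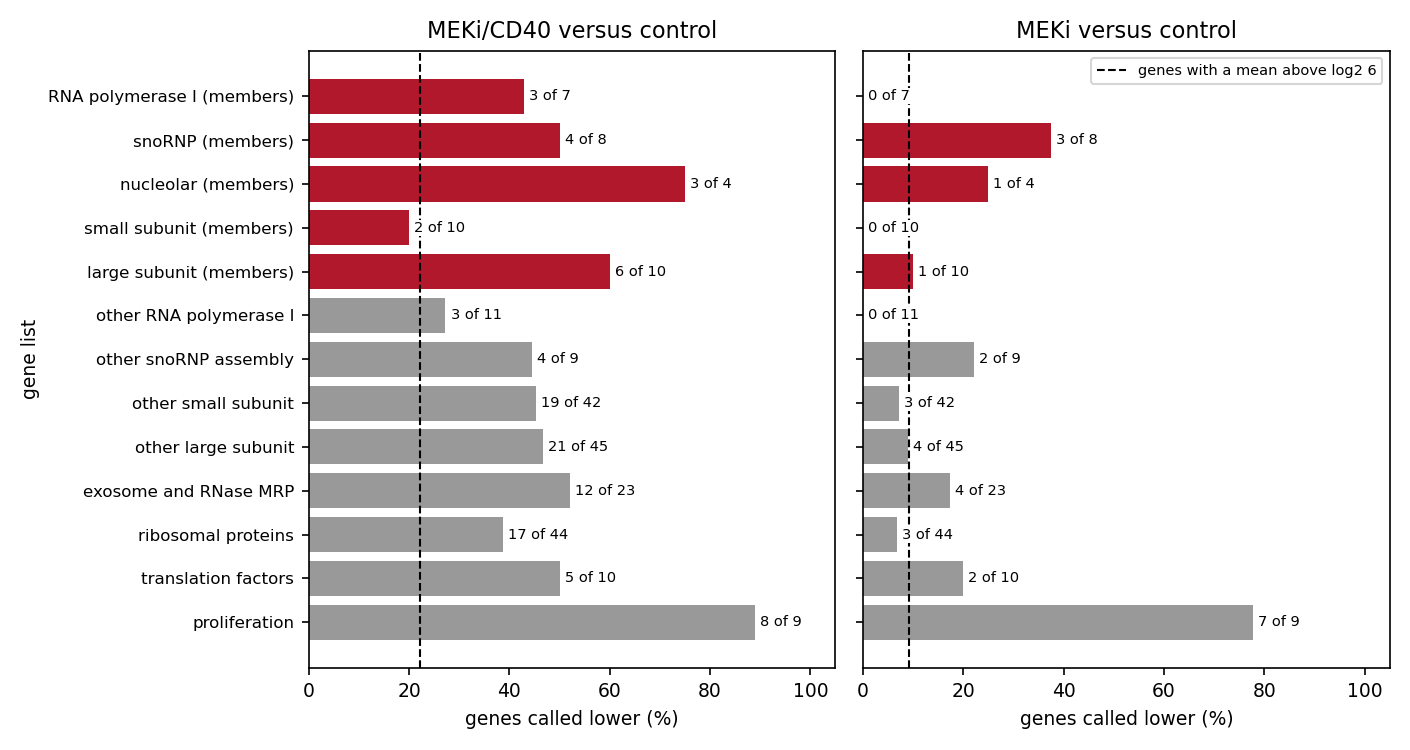
Share of the genes of each list called lower (horizontal axis, percent) with MEKi/CD40 (left) and MEKi (right) against control, for the 5 role groups of members (red) and other lists (grey), with the counts at the bars. The dashed line marks the share among genes with a mean above log2 6, 22.1% and 9.19%. The 5 lists of other pathway genes lie above the line on the left, as do 4 of the 5 member groups, the small subunit group with 2 of 10 being the exception.

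The regulators were read beside the members. Myc read 9.42, 9.58, 9.88 and 9.64 with MEKi/CD40 and 10.07 to 10.32 in control, without overlap (−0.60 ± 0.09 SE, adjusted p = 0.00635). With MEKi alone it was at 9.84 to 10.45 (−0.01, adjusted p = 1). The interaction for Myc was −0.51 and did not pass the threshold (adjusted p = 0.155). Mxd4, a Max partner that opposes Myc, rose by 1.13 with MEKi/CD40 (adjusted p = 0.00836) and by 0.72 with MEKi (adjusted p = 0.00236). Of the 12 genes of this network 4 fell and 1 rose with MEKi/CD40, also when MEKi/CD40 3 was left out.

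Dusp6, a feedback phosphatase induced by ERK, read 10.33, 11.09, 12.26 and 11.82 with MEKi/CD40, against 12.39 to 12.81 in control (−1.28, adjusted p = 0.0625), so that MEKi/CD40 3 was again the highest of its group. With MEKi alone it differed by −0.24 (adjusted p = 0.455). Of 15 ERK target genes 3 fell with MEKi/CD40, Dusp4, Etv5 and Epha2, and 1, Spry2, rose, a share near the 22.1% of genes above log2 6. The count of lower targets was 6 without MEKi/CD40 3. With MEKi alone 1 fell, Etv5 (−0.73, adjusted p = 0.0329), 1 rose, Spry2 (0.68, adjusted p = 0.0177), and the median was −0.06. The proliferation genes fell in 8 of 9 cases with MEKi/CD40 (median −1.22), in all 9 without MEKi/CD40 3, and in 7 of 9 with MEKi (median −0.65). Mki67 fell by 1.18 (adjusted p = 0.00536) and by 0.64 (adjusted p = 0.00823). Across the 4 MEKi/CD40 tumors, number 3 had the highest value for 37 members, for Mki67, at 10.78 against 9.96 to 10.56, and for Myc, at 9.88.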

How the data were processed

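RNA of 18 MC38 tumors was hybridised to Affymetrix mouse arrays read from the transcripts' 3′ end. The authors deposited log2 expression values per probe set after RMA (background correction, quantile normalization and summary); the RMA version and build are not given in the sources used here. Of 45101 probe sets, 64 controls were set aside. Of the remaining 45037, 34945 carried 1 gene symbol in GEO's platform annotation, 932 several and 9160 none. Depth does not apply to arrays, and their number limits the precision. Each pair of groups was fitted by itself with limma 3.58.1 in R 4.3.3 (lmFit and eBayes, two-sided), since the study applied its empirical Bayes test to 2 groups at a time, and the interaction was fitted over all arrays, with Benjamini-Hochberg adjustment over all probe sets. The procedure was tested on simulated data. Control comparisons share the same arrays.

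Members and lists were chosen with earlier results of these data known. All members are named, with fuller statistics for the 10 smallest p-values and the largest differences per comparison, and at most 4 genes per other list. The alternatives were a joint fit, quantile or cyclic loess normalization, a filter (above log2 6 on 4 arrays), the mean of all probe sets, the number series, the replicate number, the adipocyte level and leaving out each array. E-box and ETS letters were matched by script in the RefSeq windows.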

Additional observations from a re-analysis of the deposited data

Results flagged for a closer look

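Of 156 sets of replicates (39 members in 4 groups), 9 held an array that stood apart from the rest of its group by Dixon's test, where chance gives about 1 in 20. In MEKi/CD40 there were 4. Tumor 3 was the high one for Gnl3 (gap over range 0.9318, with 11.81 against 11.40 for the next), Nop14 (0.8571) and Fbl (0.8413), and tumor 1 the low one for Rrp1b (0.8438, with 7.65 against 7.92). In control, tumor 5 was the low one for Rrp12 (0.8211, with 7.17 against 7.95), Nip7 (0.8000) and Rrp1b (0.7647), and tumor 1 the high one for Polr1c (0.7368). In anti-CD40, tumor 3 was the high one for Dkc1 (0.8378, with 12.74 against 12.43).

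The effect of the antibody on Polr1c differed between tumors with and without MEKi. The interaction was −0.4885 on the log2 scale (limma, adjusted p = 0.00315), and it was the only one of the 39 members to pass the threshold in all 18 runs that left out 1 array.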

How the results depend on the processing

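Differences of the 10 members with the smallest p per comparison, and of any other member called lower, kept their sign under every alternative. Some others changed sign. Without the 3 high-adipocyte arrays 36 members were below 0 for MEKi/CD40 against control, instead of 39. For the interaction it was 24 instead of 34, and for MEKi against anti-CD40 28 instead of 34. For MEKi/CD40 against control, 18 members lower became 28 in the joint fit of all 18 arrays, 28 with dim probe sets filtered out, 13 with cyclic loess, where Mybbp1a, Gar1, Ncl, Ddx10 and Ebna1bp2 lost their calls, 9 with the number series as a covariate, 1 in the low series alone, and 4 both without the 3 high-adipocyte arrays and with the adipocyte level as a covariate. It was 9 to 31 when single arrays were left out. The share of all probe sets called lower was 9.37% in the main fit. It was 12.7% in the joint fit, 29.0% of those kept by the filter and 7.98% with cyclic loess. The series covariate gave 5.65% and the low series 1.04%. Without the high-adipocyte arrays it was 4.82%, with the adipocyte level 3.87%, and without single arrays 6.8% to 10.1%. For MEKi against control, 5 became 3 in the joint fit, 15 with the filter, 9 with the mean of all probe sets, 3 with the number series as a covariate, 0 in the low series and 14 with the adipocyte level, and 0 to 9 without single arrays. Of all probe sets 3.83% were lower in the main fit, 4.19% in the joint fit and 17.5% with the filter. By the mean of all probe sets 7.41% of genes were. The series covariate gave 2.81%, the low series 0.0422%, the adipocyte level 4.65% and single arrays left out 1.53% to 3.73%. For MEKi/CD40 against MEKi, 1 became 11 in the joint fit, 3 with quantile normalization, 7 with the filter, and 0 with the number series as a covariate, in the low series and with the adipocyte level, and 0 to 3 without single arrays. The share of all probe sets here was 1.77% in the main fit, 6.19% in the joint fit, 2.86% with quantile normalization and 11.5% with the filter. The series covariate gave 0.0511%, the low series 0.0133%, the adipocyte level 0.0999% and single arrays left out 0.0422% to 1.24%. For MEKi/CD40 against anti-CD40, 9 became 21 in the joint fit, 5 with cyclic loess, 17 with the filter, 1 without the high-adipocyte arrays and 3 with the adipocyte level, and 3 to 29 without single arrays. It was 7 with the mean of all probe sets, of which 5 were among the 9. Of all probe sets 7.19% were lower in the main fit, 11.5% in the joint fit, 5.98% with cyclic loess and 24.9% with the filter. By the mean of all probe sets 10.5% of genes were. Without the high-adipocyte arrays it was 0.52%, with the adipocyte level 3.48%, and without single arrays 3.9% to 8.4%. For MEKi against anti-CD40, 1 became 2 in the joint fit, with either normalization and with the mean of all probe sets, 4 with the filter, 3 with the adipocyte level (Fbl, Nop56 and Imp4, while Polr1c lost its call), and 0 with the number series, in the low series, without the high-adipocyte arrays and without any single array. Here the share of all probe sets was 2.26% in the main fit, 2.83% in the joint fit and 13.8% with the filter. Quantile normalization gave 2.54%, cyclic loess 2.73% and the adipocyte level 3.22%, and the mean of all probe sets 4.84% of genes. It was 0.129% with the series covariate, 0.144% in the low series and 0.32% without the high-adipocyte arrays. Single arrays left out gave 0.204% to 1.8%. For the interaction, 1 became 2 with the filter, 2 with the mean of all probe sets and 0 in the low series, and 1 to 4 without single arrays. Its share of all probe sets below 0 and called was 1.58% in the main fit and 6.53% with the filter. By the mean of all probe sets it was 1.69% of genes. The low series gave 0.0533% and single arrays left out 0.822% to 1.95%. Anti-CD40 against control stayed at 0 in every alternative. The filter leaves 17407 probe sets to adjust over. The joint fit has more residual degrees of freedom, and fits without an array have fewer. The cause of these shifts was not tested.

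Deviations of same-numbered tumors correlated at −0.37 to 0.29, so replicate numbers did not pair the samples. With the replicate block, 2 members (1.8% of all probe sets) were called for MEKi/CD40 against anti-CD40 and 1 (0.908%) for the interaction. The count was 0 for MEKi/CD40 against control (0.182%), MEKi against anti-CD40 (0.00222%), MEKi against control and MEKi/CD40 against MEKi (both 0.0%). Of single-gene values, 1193 kept their side of the threshold, 285 lost and 54 gained a call.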
